A study of Mus musculus with 12 samples.

Results

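Transcripts of 10 genes of liver sinusoidal and vascular endothelium were followed in livers that overexpressed GFP or the carbohydrate-responsive transcription factor ChREBP, which Mlxipl encodes. The members were chosen by name, with 1 table row per gene, the brightest over all 12 arrays among rows whose platform annotation gives that symbol alone. All 10 were found among 19938 genes. They comprised 6 genes typical of sinusoidal endothelium (Lyve1, Stab1, Stab2, Oit3, Fcgr2b, Clec4g) and 4 genes shared by most endothelia (Pecam1, Kdr, Cdh5, Vwf). Whole liver RNA of 12 male C57BL/6J mice was measured, 1 array per mouse, with 6 animals per group. Each mouse, labelled as 8 weeks old, had received an adenovirus for GFP (the control protein) or for ChREBP through the tail vein and was examined, fed, 3 weeks after the injection. Both groups therefore carried a virus, and no uninjected liver was compared. The sources used here give neither the promoter of the virus nor the species and isoform of its ChREBP.

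Liver sinusoids are lined by a fenestrated endothelium without a continuous basement membrane, which clears waste macromolecules from the portal blood through scavenger and lectin receptors. Stabilin 1 and stabilin 2, encoded by Stab1 and Stab2, are its large scavenger receptors, and stabilin 2 takes up hyaluronan. Lyve1 encodes another hyaluronan receptor, known also from lymphatic endothelium and some macrophages. Fcgr2b encodes the inhibitory Fc gamma receptor, which removes small immune complexes in the sinusoid and is also made by B cells and macrophages. Clec4g encodes the C-type lectin LSECtin, and Oit3 a secreted protein whose transcript marks these cells. Among the general genes, Pecam1 and Cdh5 encode junction proteins (CD31 and VE-cadherin), Kdr the main receptor of VEGF-A, and Vwf the platelet-binding von Willebrand factor. When sinusoidal endothelium loses its fenestrae, a change known as capillarisation, it takes on genes of continuous vessels.

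Start-site sequences of 5 of the 10 members (Stab1, Stab2, Clec4g, Fcgr2b, Kdr) were found in the RefSeq promoter table of GRCm38.p6, each running from 250 bases before to 50 bases after the start. They are shown for Stab1, Stab2 and Clec4g, the 3 whose windows share the short ETS-type motif AGGAAG, which was searched after the sequences were seen. The windows of Fcgr2b, also a sinusoidal gene, and Kdr do not hold it. The windows lie at chr14:31168592-31168891, chr10:87007893-87008192 and chr8:3720602-3720901, all on the minus strand, and capitals mark AGGAAG or its reverse complement CTTCCT.
Stab1: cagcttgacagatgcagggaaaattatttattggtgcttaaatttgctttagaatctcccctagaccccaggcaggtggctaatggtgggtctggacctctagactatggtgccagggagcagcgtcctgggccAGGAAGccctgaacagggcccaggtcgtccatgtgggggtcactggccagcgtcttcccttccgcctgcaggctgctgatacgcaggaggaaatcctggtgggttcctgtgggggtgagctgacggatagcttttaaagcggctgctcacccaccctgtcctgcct
Stab2: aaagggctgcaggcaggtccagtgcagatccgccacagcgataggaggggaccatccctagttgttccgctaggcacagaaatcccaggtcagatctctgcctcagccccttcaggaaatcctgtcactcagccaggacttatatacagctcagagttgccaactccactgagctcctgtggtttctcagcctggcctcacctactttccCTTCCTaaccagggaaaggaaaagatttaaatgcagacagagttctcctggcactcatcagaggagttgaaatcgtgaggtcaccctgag
Clec4g: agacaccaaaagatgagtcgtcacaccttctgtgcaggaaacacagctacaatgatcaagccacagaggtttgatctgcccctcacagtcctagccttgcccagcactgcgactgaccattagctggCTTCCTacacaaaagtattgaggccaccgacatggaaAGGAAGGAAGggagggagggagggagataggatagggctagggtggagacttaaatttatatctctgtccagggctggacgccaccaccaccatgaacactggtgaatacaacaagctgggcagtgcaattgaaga

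A total of 12 short motifs were searched on both strands. GATA and CACCC were in all 5 windows, as in 57.9% and 57.5% of all promoters. AGGAAG and the partly overlapping CAGGAA were each in the same 3 windows, against 35.4% and 30.6% of all promoters. CCGGAA was found only in the Kdr window (14.9% of all promoters) and TATAAA only in that of Clec4g (13.6%). AGATAA (11.2%), ACAAAG (18.7%), CACGTG (7.15%), TGACTCA (5.20%), GTAAACA (3.65%) and CCACACCC (3.56%) were in none of the 5. These matches describe the letters of the windows and are no measure of binding.

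The array values are RMA values on the log2 scale, on which a difference of 1 is a 2-fold change. Mlxipl was 9.32 ± 0.23 (SD, n = 6) on the GFP arrays and 10.89 ± 0.08 (SD, n = 6) on the ChREBP arrays, a rise of 1.57 without overlap (adjusted p = 2.86e-08). Arrays of the same group correlated across genes at 0.981 to 0.997, and those of different groups at 0.964 to 0.983. The arrays ChREBP 4 and ChREBP 5 stood apart. All 5 measured pancreatic acinar markers lay above every GFP array there, and their summed level on the linear scale reached 25509 and 22151, against 253 to 333 on the GFP arrays and 255 to 1108 on the other ChREBP arrays. All 5 markers also lay above every GFP array on ChREBP 2, and 4 of 5 on ChREBP 6, and these arrays stayed in every fit without ChREBP 4 and ChREBP 5. Results that rest on ChREBP 4 and ChREBP 5 are therefore given with and without them. Adipocyte markers varied in both groups, with summed levels of 473 to 1585 on the GFP arrays and 1298 to 2045 on the ChREBP arrays. Their mean lay highest on GFP 4, GFP 6 and ChREBP 6, at 0.78, 0.69 and 0.99 from the GFP mean. Their part in the endothelial values was not tested. In whole liver RNA, fewer cells of a type and less RNA per cell cannot be told apart.

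The comparison of ChREBP with GFP asks here whether endothelial transcripts differ between livers with and without excess ChREBP. Lyve1 was the only member that passed limma's test over all genes (adjusted p under 0.05) with all 12 arrays, and it was higher in ChREBP livers. The other 9 did not pass, with differences between -0.31 for Oit3 and 0.28 for Pecam1. Thus 1 of 10 members was called, against 27.0% of all genes (13.3% higher and 13.7% lower in ChREBP livers). The groups did not overlap in 1 of 10 members, against 15.2% of all genes. The median difference was -0.14 over the 6 sinusoidal members and 0.12 over the 4 general ones, beside -0.04 over all genes.

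**Figure D1:**
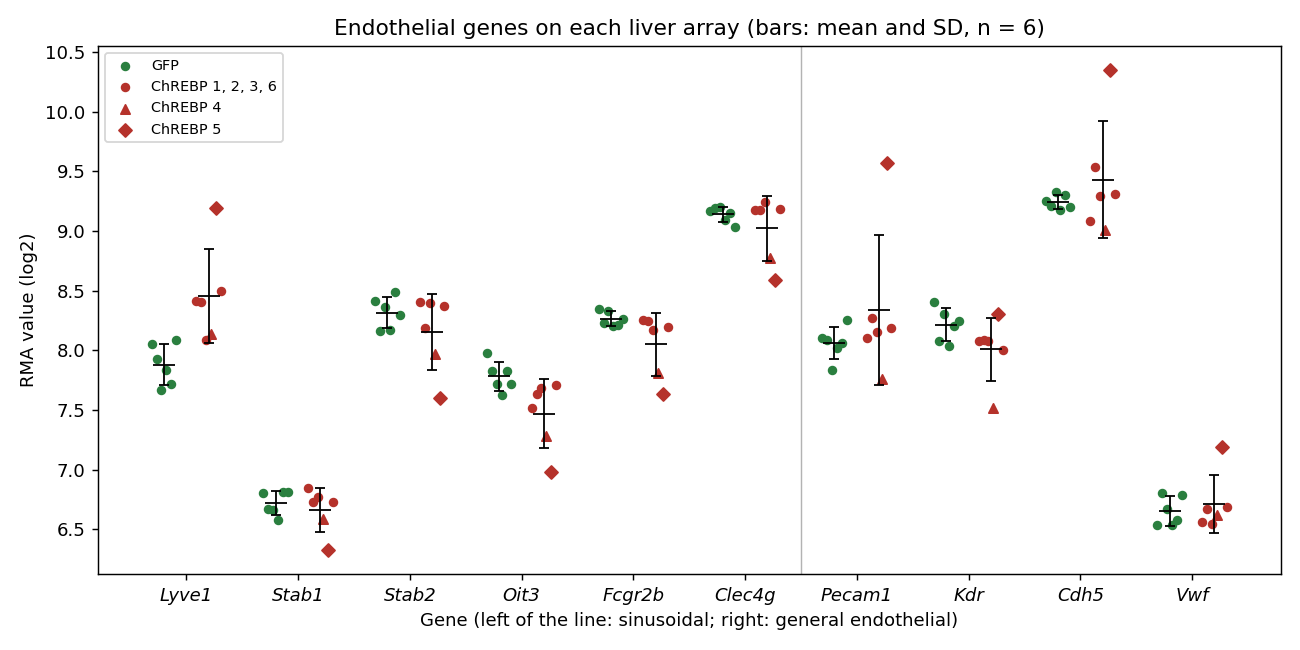
RMA values (log2) of the 10 endothelial genes on 6 GFP arrays (green) and 6 ChREBP arrays (red), with ChREBP 4 as triangles, ChREBP 5 as diamonds and black bars for mean and SD. Lyve1 is higher on the ChREBP arrays, and ChREBP 5 lies below the other arrays in Stab1, Stab2, Oit3, Fcgr2b and Clec4g but above them in Lyve1, Pecam1, Cdh5 and Vwf.

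Lyve1 ran from 7.67 to 8.09 with a median of 7.88 on the GFP arrays, and from 8.09 to 9.19 with a median of 8.41 on the ChREBP arrays. All 6 ChREBP values lay above all 6 GFP values, but the lowest ChREBP value (ChREBP 3) exceeded the highest GFP value (GFP 6) by only 0.00017. Lyve1 rose by 0.57 (SE 0.15, 95% confidence interval 0.24 to 0.91, adjusted p = 0.0134), or 1.49-fold. ChREBP 5 held the highest value, 9.19, with 8.50 as the next. The rise was 0.43 without ChREBP 5 (adjusted p = 0.00544) and 0.47 without ChREBP 4 and ChREBP 5 (SE 0.10, adjusted p = 0.00472). Without GFP 4, GFP 6 and ChREBP 6, the 3 arrays with the highest values of the adipocyte gene Adipoq, Lyve1 was 0.60 higher but missed the threshold (adjusted p = 0.0511).

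The stabilins did not pass. Stab1 ran from 6.57 to 6.81 on the GFP arrays (median 6.73) and from 6.32 to 6.84 on the ChREBP arrays (median 6.73), a difference of -0.06 (95% confidence interval -0.23 to 0.12, adjusted p = 0.622). Stab2 ran from 8.16 to 8.49 (median 8.33) and from 7.60 to 8.40 (median 8.28), a difference of -0.16 (95% confidence interval -0.43 to 0.11, adjusted p = 0.367). The groups overlapped in both genes. ChREBP 5 was the lowest array of all in both, and ChREBP 4 lay below the GFP range in Stab2 alone. Without ChREBP 4 and ChREBP 5 the sign turned in both, to 0.05 for Stab1 (95% confidence interval -0.09 to 0.18) and 0.03 for Stab2 (95% confidence interval -0.14 to 0.19).

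Oit3, the sinusoidal marker with the most negative difference, missed the threshold. It ran from 7.63 to 7.97 on the GFP arrays (median 7.77) and from 6.98 to 7.71 on the ChREBP arrays (median 7.58). The groups overlapped, with ChREBP 4 (7.28) and ChREBP 5 (6.98) lowest and ChREBP 1 (7.52) next. The difference was -0.31 (SE 0.11, 95% confidence interval -0.56 to -0.07, adjusted p = 0.0561). Without ChREBP 4 and ChREBP 5 it was -0.14 (95% confidence interval -0.30 to 0.01, adjusted p = 0.148), so that these arrays moved the value by more than 1.5 times. Its threshold was crossed in 6 of 23 alternative fits.

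Fcgr2b and Clec4g also held their low values on the same arrays. Fcgr2b ran from 8.20 to 8.35 on the GFP arrays (median 8.25) and from 7.64 to 8.26 on the ChREBP arrays (median 8.18), a difference of -0.21 (95% confidence interval -0.43 to 0.00, adjusted p = 0.131). Clec4g ran from 9.04 to 9.20 (median 9.16) and from 8.59 to 9.24 (median 9.18), a difference of -0.12 (95% confidence interval -0.34 to 0.11, adjusted p = 0.426). The groups overlapped in both genes, with ChREBP 5 lowest and ChREBP 4 next. Without ChREBP 4 and ChREBP 5, Fcgr2b differed by -0.05 (95% confidence interval -0.16 to 0.06) and Clec4g by 0.05 (95% confidence interval -0.05 to 0.16). These intervals are narrow beside the rise of Lyve1, but they do not show equality. A second, dimmer row is annotated to Clec4g and was not used, since the brightest row stands for the gene. It ran from 5.05 to 5.30 on the GFP arrays and from 4.92 to 5.13 on the ChREBP arrays.

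Of the 4 general endothelial members none passed limma's test (0 at an unadjusted p under 0.05, and 0 by the analysis of variance). Pecam1 ran from 7.83 to 8.25 on the GFP arrays (median 8.07) and from 7.76 to 9.57 on the ChREBP arrays (median 8.17), a difference of 0.28 (SE 0.23, adjusted p = 0.380). Cdh5 ran from 9.18 to 9.33 (median 9.23) and from 9.01 to 10.35 (median 9.30), a difference of 0.19 (SE 0.17, adjusted p = 0.454). For both genes ChREBP 5 was the highest array and ChREBP 4 the lowest. Without ChREBP 5 the difference fell to 0.04 for Pecam1 and 0.00 for Cdh5. With both ChREBP 4 and ChREBP 5 left out, Pecam1 differed by 0.12 (95% confidence interval -0.04 to 0.28). Cdh5 then differed by 0.06 (95% confidence interval -0.10 to 0.23).

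Kdr, the VEGF receptor gene, ran from 8.04 to 8.41 on the GFP arrays (median 8.22) and from 7.51 to 8.30 on the ChREBP arrays (median 8.07), a difference of -0.20 (SE 0.11, adjusted p = 0.183). Here ChREBP 4 was lowest (7.51), while ChREBP 5 (8.30) was the highest of its group, and 4 ChREBP arrays lay between 8.00 and 8.09. Vwf ran from 6.53 to 6.80 (median 6.62) and from 6.54 to 7.19 (median 6.64), a difference of 0.06 (SE 0.10, adjusted p = 0.694). Only ChREBP 5 lay above the GFP range of Vwf. Without ChREBP 4 and ChREBP 5, Kdr differed by -0.15 (95% confidence interval -0.31 to 0.00, adjusted p = 0.134) and Vwf by -0.04 (95% confidence interval -0.19 to 0.11). Kdr moved in opposite ways with the single arrays, to -0.10 without ChREBP 4 and to -0.26 without ChREBP 5, and passed in neither case. The sign of Vwf also turned with quantile normalization repeated.

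**Figure D2:**
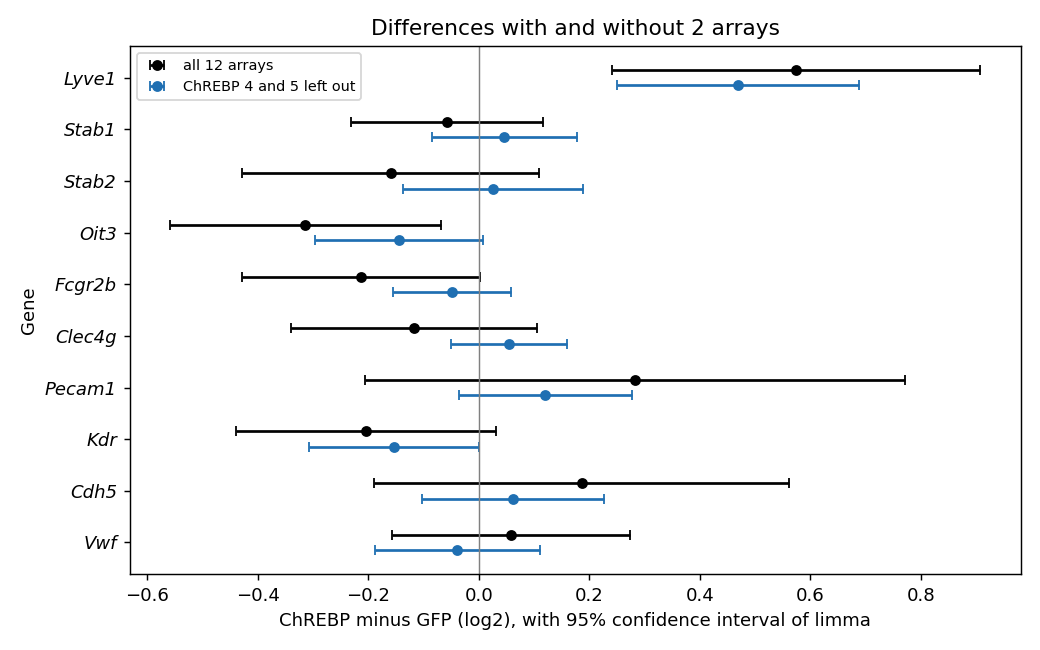
ChREBP minus GFP (log2) of each endothelial gene with limma's 95% confidence interval, for all 12 arrays (black) and without ChREBP 4 and ChREBP 5 (blue). The interval of Lyve1 lies above 0 in both fits, and 9 members come to lie between -0.15 and 0.12 without the 2 arrays.

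With ChREBP 4 and ChREBP 5 left out, Lyve1 was again the only member called, 1 of 10 against 24.9% of all genes. The median difference was then 0.04 over the sinusoidal and 0.01 over the general members, beside -0.05 over all genes. The 2 arrays differed from each other. On ChREBP 4, 7 of the 10 members lay below every GFP array, namely Stab2, Oit3, Fcgr2b, Clec4g, Pecam1, Kdr and Cdh5, and 1 above, Lyve1. On ChREBP 5, the 5 sinusoidal members other than Lyve1 lay below every GFP array, at -0.40 (Stab1) to -0.81 (Oit3) from the GFP mean. Lyve1, Pecam1, Cdh5 and Vwf lay above every GFP array on ChREBP 5, at 1.31, 1.51, 1.10 and 0.54 from the GFP mean. The share of all genes outside the GFP range was not counted for single arrays, so these counts stand without a background.

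Endothelial genes outside the 10 behaved likewise on ChREBP 5. Of 21 other general endothelial genes 17 lay above every GFP array and 1 below, and of 12 other sinusoidal genes 0 lay above and 11 below. On ChREBP 4, which held as high a summed level of acinar markers, the counts were 3 above and 10 below among the general genes, and 0 above and 8 below among the sinusoidal ones. On ChREBP 5, 3 of 4 measured platelet markers, 3 of 5 B cell markers, 2 of 4 cholangiocyte markers and 1 of 4 lymphatic markers also lay above every GFP array, against 0, 1, 1 and 1 on ChREBP 4. The part of these cell types or of the acinar transcripts in the endothelial values was not tested. Here too no share of all genes was counted for single arrays, so the counts cannot be read as particular to endothelial genes.

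**Figure D3:**
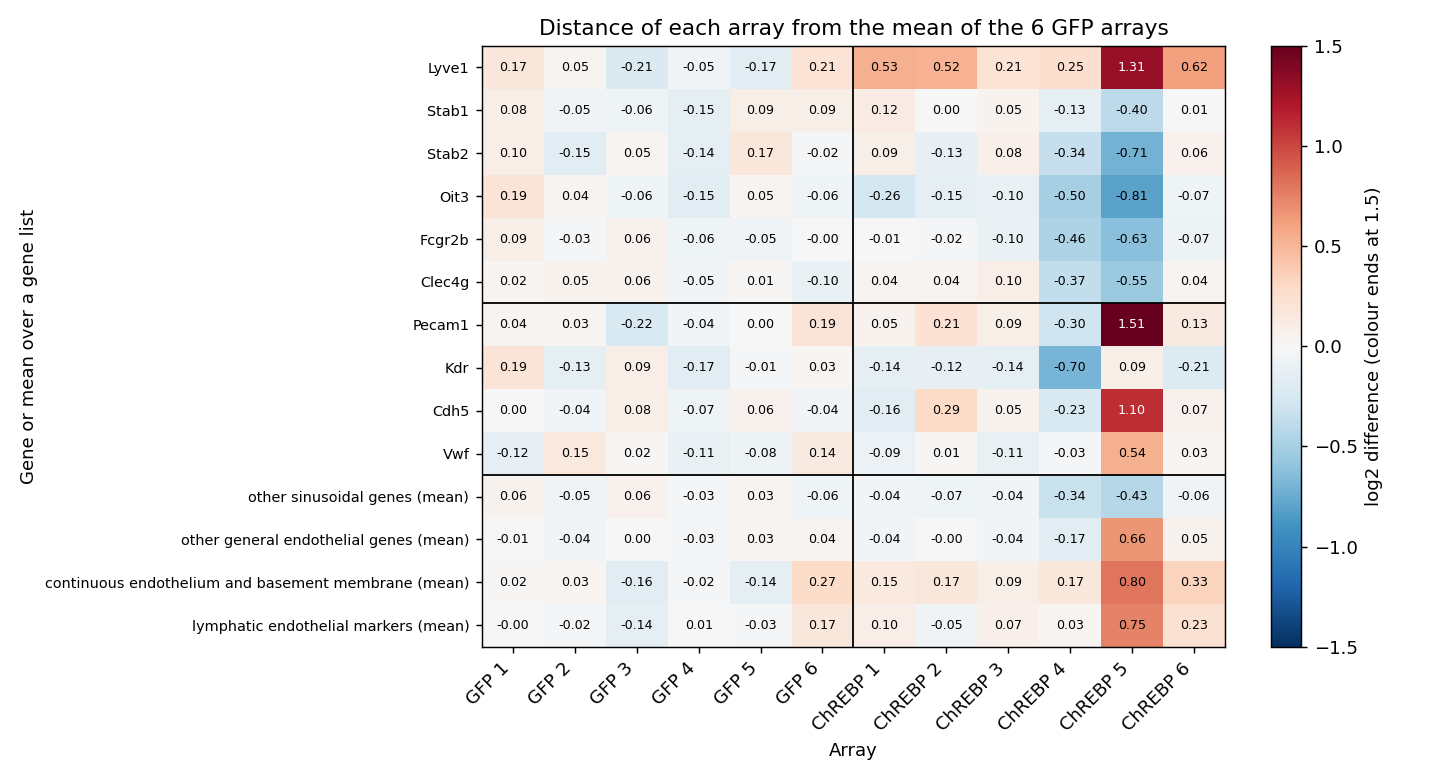
Distance (log2) of every array (columns) from the mean of the 6 GFP arrays, for the 10 endothelial genes and for the mean over 4 lists of other endothelial genes (rows), red for higher and blue for lower. On ChREBP 5 the mean of the other sinusoidal genes is -0.43 and that of the other general endothelial genes 0.66, while ChREBP 1, 2, 3 and 6 lie between -0.07 and 0.05 in both.

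To compare the members with the junction gene of the same array, the value of Cdh5 was subtracted from every gene and the fit repeated. Of the other 9 members 0 passed limma's test (1 at an unadjusted p under 0.05), against 4.43% of all genes. The differences relative to Cdh5 ran from -0.50 for Oit3 to 0.39 for Lyve1, each with an SE of 0.23, to which the high Cdh5 value on ChREBP 5 contributes. Without ChREBP 5 the SE was 0.11 to 0.12, and Lyve1 alone passed, its difference between the groups exceeding that of Cdh5 by 0.42 (adjusted p = 0.0163). Without ChREBP 4 and ChREBP 5 its difference exceeded that of Cdh5 by 0.41 (adjusted p = 0.0335). Relative to the mean of the 21 other general endothelial genes, with all arrays, the difference of Lyve1 was 0.50 (adjusted p = 0.0150) and the other members did not pass. The share of all genes called was counted only for the Cdh5 fit with all arrays. The fits in which Lyve1 passed therefore have no such background.

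Further endothelial and partner genes were read from 14 fixed lists, which overlap and hold 102 measured genes that are no members. Of these 21 rose and 9 fell, 29.4% in all against 27.0% of all genes, with a median difference of 0.06. Hepatocyte markers moved beside them, with 5 of 6 lower and 0 higher and summed levels of 38326 to 41316 on the GFP arrays and 31013 to 35693 on the ChREBP arrays, and their part in these values was not tested. Of the 30 calls, 19 held in every alternative fit in which the gene was tested. Over all genes, 13.3% rose, 13.7% fell and 15.2% had groups without overlap, which is the background for each list below. Among 12 other sinusoidal genes 0 rose and 4 fell, with a median of -0.09. With ChREBP 4 and ChREBP 5 left out the median was -0.02, with 1 gene higher (Flt4, 0.29, adjusted p = 0.00478) and 1 lower (Ehd3). Ehd3, an endocytic recycling gene, ran from 8.06 to 8.40 on the GFP arrays and from 7.25 to 7.78 on the ChREBP arrays, without overlap, and fell by 0.72 (SE 0.09, adjusted p = 3.03e-05). It also fell without ChREBP 4 and ChREBP 5 (-0.61, adjusted p = 7.53e-05). Bmp2, which encodes a signal for hepcidin in hepatocytes, fell by 0.33 (adjusted p = 0.0117), the DNase gene Dnase1l3 by 0.30 (adjusted p = 0.0483) and Wnt2 by 0.22 (adjusted p = 0.0431). These 3 genes did not pass without ChREBP 4 and ChREBP 5, at -0.23, -0.13 and -0.12 (adjusted p = 0.0541, 0.117 and 0.170). Dnase1l3 and Wnt2 each passed in only 9 of 23 alternative fits.

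Of the 21 other general endothelial genes 2 rose and 1 fell, with a median of 0.06. The median was 0.01 without ChREBP 4 and ChREBP 5. Ecscr, an endothelial surface gene, rose by 0.47 (SE 0.09, adjusted p = 0.000849) without overlap of the groups. Cd93 rose by 0.78 (adjusted p = 0.0238) and by 0.58 without ChREBP 4 and ChREBP 5 (adjusted p = 0.00110), and its value of 9.34 on ChREBP 5 was the highest of all arrays. Cd93 did not pass without GFP 3, without GFP 4, GFP 6 and ChREBP 6, or with the analysis of variance. S1pr1, the sphingosine 1-phosphate receptor gene, fell by 0.52 (SE 0.11, adjusted p = 0.00374), with 8.78 to 9.15 on the GFP arrays against 8.22 to 9.00 on the ChREBP arrays, where ChREBP 5 was the highest.

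In continuous endothelium and basement membrane 2 of 11 genes rose and 0 fell, with a median of 0.16. The median was 0.08 without ChREBP 4 and ChREBP 5. The rise was that of Nid1, which encodes the basement membrane linker nidogen 1, by 1.04 (SE 0.09, adjusted p = 1.06e-06), from 6.36 to 6.89 on the GFP arrays to 7.49 to 7.80 on the ChREBP arrays, and of Esm1, a gene of sprouting endothelium, by 0.60 (adjusted p = 0.00513). Cd34 (0.36, adjusted p = 0.196) and Plvap (0.16, adjusted p = 0.238), genes of capillaries in other organs, did not pass. With ChREBP 4 and ChREBP 5 left out they were 0.20 and 0.06 higher and did not pass either. Nid1 was 1.04 higher without ChREBP 4 and ChREBP 5 as well. Stellate cells also make basement membrane, and among 8 stellate cell markers 2 rose and 2 fell, with summed levels of 1536 to 1735 on the GFP arrays and 1641 to 2166 on the ChREBP arrays, whose part in Nid1 was not tested.

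Of the ligands of the VEGF, angiopoietin and apelin receptors 1 of 8 passed, Angpt1, which rose by 0.71 (adjusted p = 0.0356) with 6.65 on ChREBP 5, and by 0.55 without ChREBP 4 and ChREBP 5 (adjusted p = 0.00152). It passed in 12 of the 22 alternative fits in which it was tested. Vegfa, which encodes the ligand of the Kdr product, was -0.11 with all arrays (adjusted p = 0.306) and passed as lower without ChREBP 4 and ChREBP 5 (-0.22, adjusted p = 0.00703). Of 7 receptors other than Kdr 1 rose and 1 fell, with a median of 0.04. With ChREBP 4 and ChREBP 5 left out, 2 rose and 2 fell, and the median was -0.15. The added calls were Flt4 (0.29) and Aplnr (-0.21). The coreceptor gene Nrp1 had the largest fall of the 102 genes, by 0.86 (SE 0.11, adjusted p = 6.67e-05), from 9.31 to 9.72 on the GFP arrays to 8.37 to 9.02 on the ChREBP arrays, without overlap. Its relative Nrp2 rose by 0.23 (adjusted p = 0.0160), a call lost when arrays were median centred or quantile normalized again. In the Notch list Notch1 rose by 0.38 (adjusted p = 6.33e-05) and the other 9 of 10 genes did not pass, among them Notch4 (-0.11), Hey1 (0.28) and Jag1 (0.12). Hey1 was 0.15 higher without ChREBP 4 and ChREBP 5 (adjusted p = 0.330).

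Secreted signals of liver endothelium moved both ways, 2 higher and 3 lower of 8. The hepatocyte growth factor gene Hgf, also a product of stellate cells, rose by 0.44 (adjusted p = 0.000943), and Gas6, a ligand of TAM receptors, by 0.53 (adjusted p = 0.00359). Rspo3, a Wnt amplifier made around the central vein, fell by 0.24 (adjusted p = 0.0286), beside Bmp2 and Wnt2. In the list of central vein endothelium, Rspo3, Wnt2 and Cdh13 (-0.19, adjusted p = 0.0359) fell among 6 genes, and none of the 3 passed without ChREBP 4 and ChREBP 5 or with the replicate block. Of 6 genes of portal endothelium 0 passed limma's test or the analysis of variance (1 at an unadjusted p under 0.05, Ltbp4 at -0.21).

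Leukocyte adhesion molecules had 5 of 10 genes higher and 0 lower, against 13.3% and 13.7% of all genes, with a median of 0.19. The median was 0.12 without ChREBP 4 and ChREBP 5. Vcam1 rose by 1.00 (SE 0.10, adjusted p = 3.28e-06), from 7.94 to 8.62 on the GFP arrays to 9.07 to 9.37 on the ChREBP arrays. Icam1 rose by 0.64 (adjusted p = 0.000116), Selplg by 0.52 (adjusted p = 0.000738), Jam2 by 0.44 (adjusted p = 0.000267) and F11r by 0.16 (adjusted p = 0.0219). The groups did not overlap in the first 4 of these, beside 15.2% of all genes. F11r overlapped and was lost without ChREBP 4 and ChREBP 5 (0.14, adjusted p = 0.0820). Vcam1, Icam1 and Selplg are also known from leukocytes or macrophages, and only some markers of those cells moved with them. Kupffer cell markers moved both ways, with 5 of 10 higher and 4 lower, and 0 of 5 B cell markers passed limma's test. Of 8 recruited macrophage markers 7 rose and 0 fell, with summed levels of 1155 to 1501 on the GFP arrays and 4095 to 4846 on the ChREBP arrays, and of 8 T and NK cell markers 5 rose and 0 fell (377 to 549 and 670 to 1187). Their part in the adhesion genes was not tested.

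**Figure D4:**
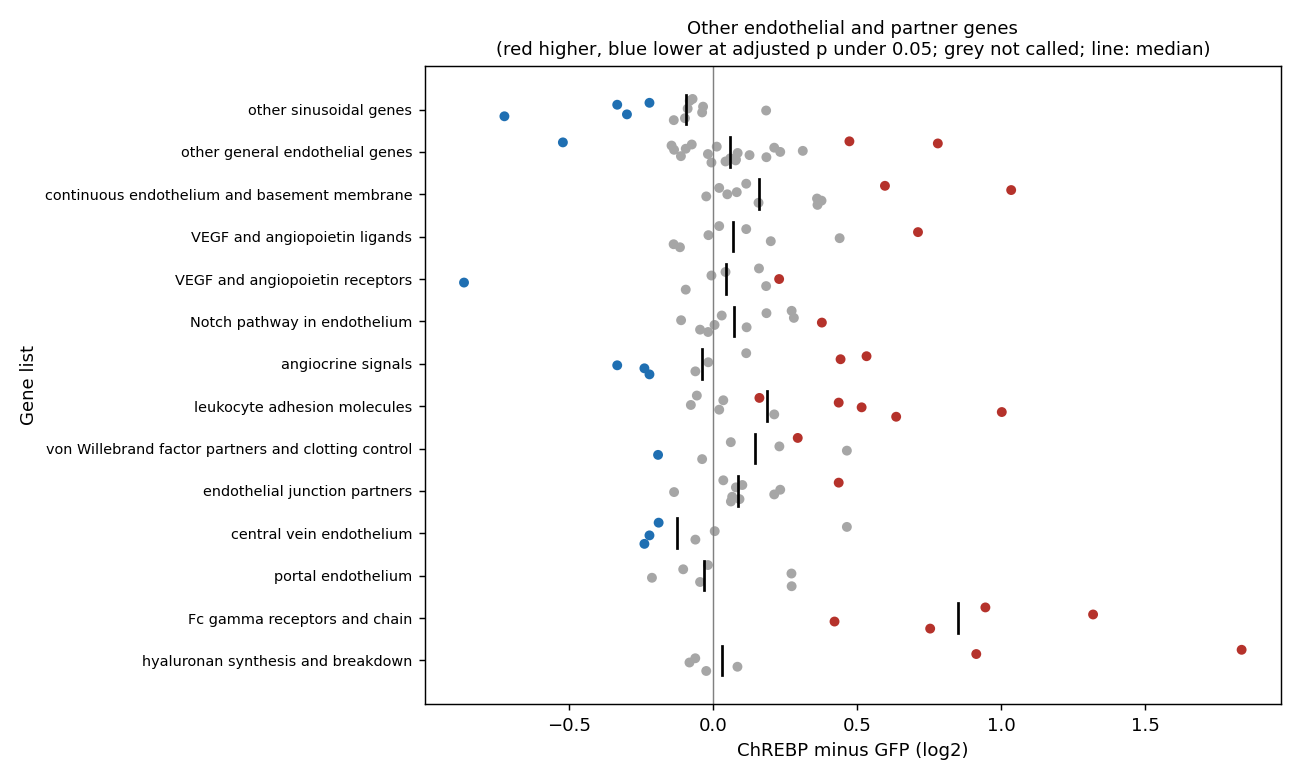
ChREBP minus GFP (log2) of each gene in the 14 lists of other endothelial and partner genes, red for genes higher and blue for genes lower at an adjusted p under 0.05, grey for genes that did not pass, with a black line at the median of each list. The Fc gamma receptor list lies highest (median 0.85), and the list medians otherwise run from -0.13 to 0.19.

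Partners of single members were compared with them. Fcgr2b (-0.21) did not pass. The activating receptor genes Fcgr4 (1.32), Fcgr1 (0.75) and Fcgr3 (0.42) and their signalling chain gene Fcer1g (0.95) all rose, 4 of 4, without overlap of the groups. Of all genes 13.3% rose and 15.2% had groups without overlap. The adjusted p ranged from 2.53e-06 for Fcgr4 to 0.000288 for Fcgr3. Those 4 genes are known from macrophages, and Fcgr3 and Fcer1g also from NK cells. The markers of both cell types are given above. Of 5 B cell markers, which bear on Fcgr2b, 0 passed limma's test or the analysis of variance (0 at an unadjusted p under 0.05). Of 10 Kupffer cell markers 5 rose and 4 fell, with summed levels of 3866 to 4860 on the GFP arrays and 4422 to 5578 on the ChREBP arrays.

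Hyaluronan, the ligand of the Lyve1 and Stab2 products, has another receptor gene, Cd44, which rose by 0.91 (adjusted p = 5.50e-06), and the mitotic hyaluronan-binding protein gene Hmmr rose by 1.84 (adjusted p = 1.41e-07) beside all 5 measured proliferation markers. The synthase genes Has2 (0.08) and Has3 (-0.08) did not pass, and neither did the other 2 measured genes of that list. Lymphatic markers, which bear on Lyve1, had 0 of 4 passing limma's test (2 at an unadjusted p under 0.05, and 0 by the analysis of variance), with summed levels of 752 to 838 on the GFP arrays, 819 to 989 on the ChREBP arrays other than ChREBP 4 and ChREBP 5, 899 on ChREBP 4 and 1597 on ChREBP 5. Among those, Prox1 (0.17), which hepatocytes also express, and the VEGF-C receptor gene Flt4 (0.18) passed without ChREBP 4 and ChREBP 5, at 0.22 (adjusted p = 0.0473) and 0.29 (adjusted p = 0.00478). Recruited macrophage markers, which also bear on Lyve1, rose in 7 of 8 cases with the summed levels given above. The part of lymphatic cells or macrophages in Lyve1 was not tested.

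In the list of von Willebrand factor partners and clotting control, Adamts13, which encodes the protease that trims von Willebrand factor and comes largely from stellate cells, fell by 0.19 (adjusted p = 0.0191). The plasminogen activator gene Plat rose by 0.29 (adjusted p = 0.0381), but passed in only 9 of 23 alternative fits. Without ChREBP 4 and ChREBP 5 it was 0.21 higher and did not pass (adjusted p = 0.146). Procr (0.23) and the thrombomodulin gene Thbd (0.46) did not pass. With ChREBP 4 and ChREBP 5 left out they were 0.19 and 0.16 higher and did not pass either. Of 4 platelet markers 0 passed limma's test or the analysis of variance (0 at an unadjusted p under 0.05), with summed levels of 339 to 758 on the GFP arrays and 274 to 981 on the ChREBP arrays, highest on ChREBP 5. Among 10 partners of the Cdh5 junction only Jam2 passed, with Jup at 0.21, Ctnna1 at 0.09 and Ctnnd1 at 0.07.

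The genes whose array-to-array pattern was most like the mean of the members were sought with the mean of each group removed. On ChREBP 5 the sinusoidal members averaged -0.30 and the general members 0.81 from the GFP mean, a split that the mean of all 10 hides. With the group mean removed, that mean was 0.14 on ChREBP 5 and -0.29 on ChREBP 4. A likeness to it therefore need not hold for the sinusoidal or the general members alone. Over 12 arrays the highest Pearson coefficients with the mean of the 10 members were 0.89 for Cd55, 0.88 for Ptprc, and 0.87 for Sp100, Cttnbp2, Fmnl2 and Ccdc88a. The likeness of Cd55 rested on ChREBP 4 and ChREBP 5, since its coefficient over the other 10 arrays was 0.14, while it was 0.84 for Cttnbp2, 0.83 for Fmnl2, 0.71 for Ccdc88a, 0.59 for Ptprc and 0.39 for Sp100. Spearman coefficients over 12 arrays ran from 0.59 to 0.81. These coefficients rank the genes and are not tested, and they share the arrays with the members.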

How the data were processed

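Expression was measured by the authors on Affymetrix mouse gene arrays, from total liver RNA amplified and biotin-labelled with Nugen reagents. The deposited values are on the log2 scale. RMA and Partek are named without versions in the submitters' processing notes, and no scan date is stated in the sources used here. The array methods of the study describe another array and virus. RMA normalizes by quantiles across arrays, so a change shared by most genes would be removed. No detection calls were used. Array medians ran from 5.96 to 6.05, and the number of arrays limits the precision.

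Of 35556 rows, 21789 carry 1 symbol, 1621 several and 12146 none. Symbols were updated by Entrez ID (21698 matched) with RefSeq names of GRCm38.p6. The groups were compared by limma (version 3.58.1, under R 4.3.3, with lmFit, eBayes, two-sided, no covariate, Benjamini-Hochberg over 19938 genes). The procedure was tested on simulated data. Their noise was independent between genes, without the shifts of many genes on 1 array that ChREBP 4 and ChREBP 5 hold. The labels call the samples biological replicates. Members and lists were chosen with earlier results of these data known. Beside the members, up to 4 genes of each list with the smallest p were named, those that complete small counts, and the 6 most alike. The 14 endothelial lists and 12 marker lists are described without a set test. The summed level of a list adds its genes on the linear scale. Alternatives changed normalization, dim genes, rows, moderation, weights, test, block and arrays. The fit relative to Cdh5 without ChREBP 4 and ChREBP 5, and the 12 promoter motifs, were chosen after seeing the data.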

Additional observations from a re-analysis of the deposited data

Results flagged for a closer look

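The highest ChREBP array stood far from the others in 3 members, and it was ChREBP 5 each time. Lyve1 was 9.19 there against 8.50 on the next array, Pecam1 9.57 against 8.27, and Vwf 7.19 against 6.69. The gap to the next array made up 0.626, 0.718 and 0.776 of the range of the 6 ChREBP arrays, above Dixon's 95% critical value for groups of that size. Of 22 groups of 6 tested (10 members and Mlxipl), chance would mark about 1 in 20. The array also held high levels of acinar transcripts and of 17 of 21 other general endothelial genes, and their part in these values was not tested. The share of all genes above the GFP range on that array was not counted.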

How the results depend on the processing

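The number of members called was 1 with all arrays, and 1 to 2 when any single array was left out. It was 2 with quantile normalization repeated, with median centring and without the 25% dimmest genes, and the added gene was Oit3 each time. Without GFP 4, GFP 6 and ChREBP 6 it was 1, but Oit3 (-0.42, adjusted p = 0.0466) in place of Lyve1 (0.60, adjusted p = 0.0511). Lyve1 passed in the other 22 of 23 alternatives. Relative to Cdh5, 0 members passed with all arrays and 0 to 1 when single arrays were left out. Relative to Cdh5 without ChREBP 4 and ChREBP 5, 1 passed, and relative to the mean of the other general endothelial genes with all arrays, 1 passed, Lyve1 in either case. The calls among the 102 other genes numbered 30, and 22 to 35 over the alternatives. Only 23 of the 30 were also called without ChREBP 4 and ChREBP 5, where 4 others were called (Vegfa, Flt4, Aplnr and Bmp6). No clear pairing by replicate number was seen, since same-numbered arrays deviated together at -0.06 to 0.25 and 1 of 6 correlated best with its own number. So few correlations cannot exclude a weak pairing. With the replicate block 1 member was called and 22 of the 102 other genes, and relative to Cdh5 0 members. Mlxipl was 1.52 to 1.63 higher whichever array was left out.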
